A study of Mus musculus with 2 samples.

Results

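The cells described here are Ly6a+ basal keratinocytes of adult mouse back skin that carry Serpinb2, Igfbp3 or Epgn transcripts. They were selected on measured counts of unique molecular identifiers (UMIs, 1 per captured mRNA molecule). A member had at least 100 UMIs of the basal keratins Krt5 and Krt14 together, at least 2 of Ly6a, and at least 3 of Igfbp3, Epgn and Serpinb2 together. It also had under 100 UMIs of the suprabasal keratins Krt1 and Krt10, under 20 of the upper follicle genes Krt79, Defb6 and Cst6, under 5 of Krt8 and Krt18, and under 3 of the division genes Top2a, Cdk1, Ube2c and Birc5. The rule took 1312 cells of the 7564 that passed quality filters in both libraries, 782 of 3936 in control and 530 of 3628 in induced.

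The study asked how the microRNA miR-205 acts on the mechanics of hair follicle stem cells and on hair growth. It deposited 2 single-cell libraries of sorted back skin cells, a control animal giving 1 and an animal with an inducible miR-205 transgene the other, both at postnatal day 53 and both carrying a K14-H2BGFP allele (a green fluorescent histone driven by the keratin 14 promoter). In the inducible line a Krt14-rtTA activator, which the keratin 14 promoter drives in basal keratinocytes, switches on a pTRE2-miR-205 construct when doxycycline is eaten. The transgene was injected into FVB mice, whereas the strain label of both libraries is C57BL/6, and the labels give no more on each animal's background. The methods say that littermates served as controls in all experiments and that this pair was processed together on 1 chip. The protocol says that both mice ate doxycycline for 4 days, from day 49, while 1 label calls the control untreated, so whether the control diet held the drug cannot be settled from the labels. What the control mouse carries of the transgenes, beyond the reporter, was not stated in the labels or methods. The mice were matched for sex, and sorting aimed at epidermal, hair follicle and dermal cells as 3:5:2 and at about 5000 cells a library. With 1 mouse in each group, no difference between the libraries could be tested, and mouse, diet, library and transgene cannot be told apart. Intervals in brackets are 95% intervals that cover counting error only.

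The interfollicular epidermis is renewed from a basal layer that rests on the basement membrane, and its cells leave that layer as they begin to make Krt1 and Krt10. Ly6a, also called Sca-1, is a surface protein used to separate basal cells of the interfollicular epidermis and upper follicle from the bulge, the stem cell niche of the hair follicle. Serpinb2 is an inhibitor of plasminogen activators that keratinocytes hold mainly inside the cell, Igfbp3 is a secreted protein that binds insulin-like growth factors, and Epgn encodes epigen, a ligand of the epidermal growth factor receptor.

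Because the transgene supplies a microRNA, its mature sequence is shown first, with the seed (bases 2 to 8) in capitals. It was read from RefSeq for GRCm38.p6, where the endogenous gene lies on the minus strand at chr1:193507503-193507524.
mmu-miR-205-5p: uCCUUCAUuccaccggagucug
The libraries count polyadenylated transcripts and do not measure the mature microRNA. Only the host transcript of the endogenous locus, 4631405K08Rik, could be read. It stood at 33.4 CPM (UMIs of a gene in every 1000000 UMIs of the population) in control members and 52.1 in induced members, a log2 ratio of 0.64 (0.45 to 0.83). In the other basal cells of the same libraries the values were 140 and 131, with a log2 ratio of −0.10. The log2 ratio was −0.59 (−0.81 to −0.37) in bulge-like cells, defined below. It was 0.19 (0.01 to 0.37) in upper follicle cells and 0.35 (−0.68 to 1.41) in suprabasal cells.

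Depth was high and close between the libraries. Members held 12785892 UMIs in control and 9044684 in induced, with medians of 16147 and 16948 UMIs and 3224 and 3345 genes a cell, and a median of 4.53% and 4.48% mitochondrial UMIs. Their UMI counts ran from 4444 to 40012 in control and from 3509 to 35236 in induced. The libraries shared 11 cell barcodes, of which 1 was a member in both. The rule used raw counts and so favours deep cells. The other basal cells set beside the members were shallower, at a median of 12251 and 13010 UMIs. The suprabasal cells were deeper, at 19835 and 20010.

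The members made up 19.9% of kept cells in control (18.6 to 21.1, exact binomial) and 14.6% in induced (13.5 to 15.8). The sort set the mix of cells in each library, so these are not shares of the skin. Among all nondividing basal cells that passed the same upper limits, 44.2% (41.9 to 46.6) of 1768 were members in control and 41.4% (38.7 to 44.2) of 1280 in induced, so the intervals of these shares overlapped. Within the Ly6a+ basal cells, almost every cell passed on the last 3 genes: 782 of 795 in control, or 98.4% (97.2 to 99.1), and 530 of 581 in induced, or 91.2% (88.6 to 93.4). The cells that failed there alone numbered 13 and 51. At the edge of the rule, 9 control and 12 induced cells had 3 UMIs of Igfbp3, Epgn and Serpinb2 and were members, and 2 and 12 cells had 2 UMIs and were not.

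The Ly6a threshold took the basal cells from 1768 to 795 in control and from 1280 to 581 in induced. Within the threshold on the last 3 genes, Serpinb2 counted for more than Igfbp3 or Epgn. It alone brought 767 of 782 control and 510 of 530 induced members over the threshold of 3 UMIs, while Igfbp3 and Epgn together reached 3 UMIs in 598 and 373 members. In 80 control and 75 induced members, or 10.2% and 14.2%, no UMI of Igfbp3 or Epgn was counted. The label "with Igfbp3 and Epgn" therefore fits most but not all members.

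The selecting genes are given as a description, since they chose the cells. Serpinb2 reached 10561 CPM in control members and 7284 in induced members. Its median was 151.5 UMIs a cell (quartiles 46 and 276) in control and 93.5 (20.3 and 179) in induced. Igfbp3 stood at 1344 and 982 CPM, with medians of 4 and 2 UMIs and upper quartiles of 30 and 21.8. Epgn stood at 743 and 448 CPM, with medians of 3 and 2. Ly6a ran the other way, at 407 and 569 CPM and medians of 5 and 7 UMIs a cell. As log2 ratios of induced over control these came to −0.54 for Serpinb2, −0.45 for Igfbp3, −0.73 for Epgn and 0.48 for Ly6a. In every one of these genes the per-cell values of the libraries overlapped over most of their range, as the cumulative curves show.

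**Figure D1:**
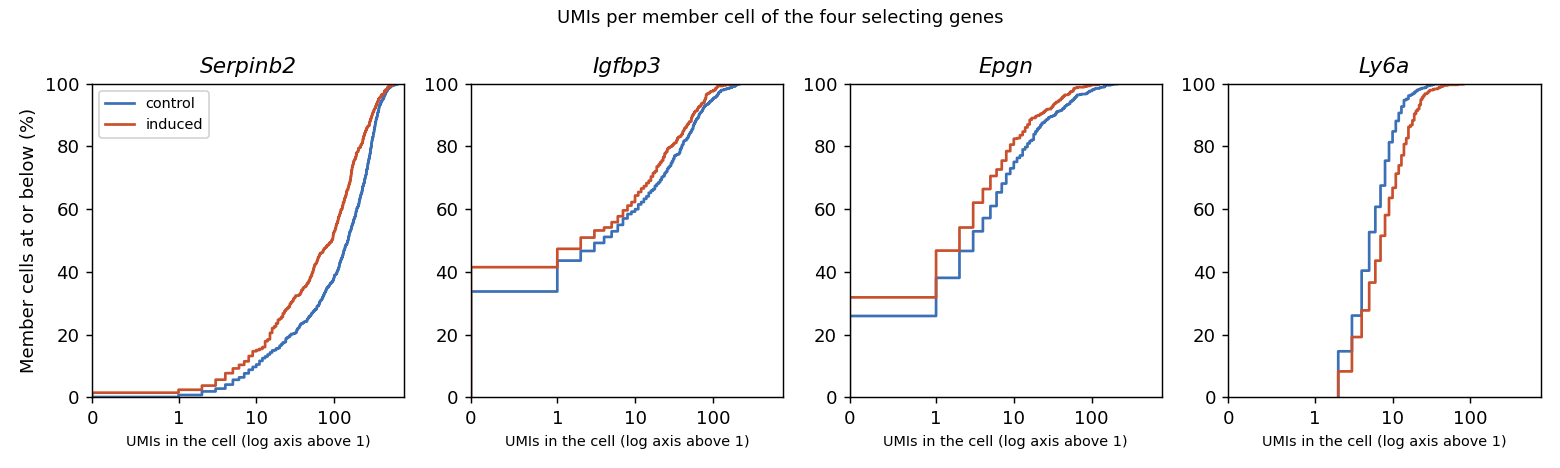
Cumulative share of member cells (vertical axis, percent) against the UMIs of Serpinb2, Igfbp3, Epgn and Ly6a in the cell (horizontal axis, log above 1), for control (782 cells, blue) and induced (530 cells, red). The induced curve lies above the control curve for Serpinb2, Igfbp3 and Epgn and below it for Ly6a, and no member has under 2 Ly6a UMIs because the rule required them.

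The same genes were read in other cells of each library, with every cell thinned to 5000 UMIs for shares of cells. Thinning left out 2 control and 3 induced members. Igfbp3 was then detected in 54.4% of control and 49.3% of induced members (66.2% and 58.5% before thinning), against 12.3% and 8.09% of fibroblast-like cells, which were taken as at least 20 UMIs of Col1a1, Col1a2 and Col3a1 with under 20 of Krt5 and Krt14. Epgn was detected in 56.0% and 49.1% of thinned members (74.0% and 68.1% before thinning) and in 3.77% and 0.74% of thinned fibroblast-like cells. Median depth before thinning in the fibroblast-like cells was 11425 and 11212 UMIs. Serpinb2 reads are more widely spread, since 34.9% of control and 14.0% of induced fibroblast-like cells had at least 1 after thinning, at 79.2 and 29.9 CPM.

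Serpinb2 was no lower in the suprabasal cells, defined by at least 100 UMIs of Krt1 and Krt10, than in the members, at 10740 CPM in control and 7829 in induced. Igfbp3 in suprabasal cells stood at 752 and 377 CPM and Epgn at 216 and 161, both below the members. After thinning, Igfbp3 was detected in 47.9% and 41.4% of suprabasal cells and Epgn in 33.0% and 18.4%. Bulge-like cells met the keratin threshold and upper limits of the rule, with Ly6a under 2 and at least 5 UMIs of the bulge markers Cd34 and Krt24. In these cells Epgn was at 31.1 and 21.5 CPM and Ly6a at 2.51 and 2.43. Igfbp3 there was at 341 and 353 CPM and was detected in 33.1% and 41.7% of thinned cells. Ly6a is no marker of keratinocytes alone, and it was highest in the fibroblast-like cells, at 1538 and 1444 CPM.

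**Figure D2:**
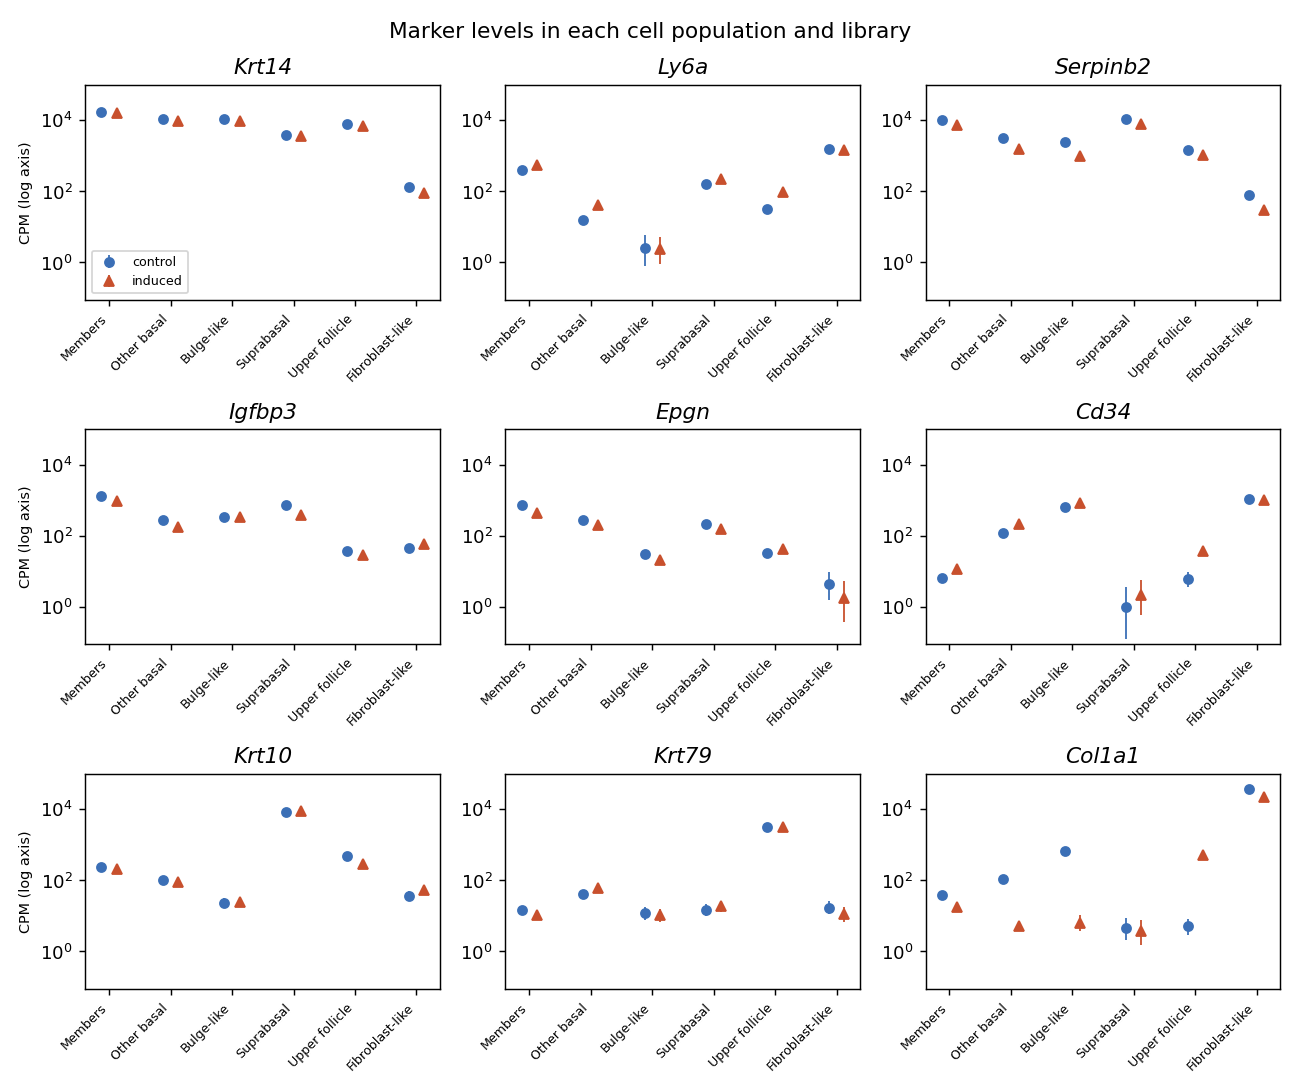
Level of 9 genes (vertical axes, CPM, log scale) in 6 cell populations of the control (blue circles) and induced (red triangles) library, with bars for exact Poisson 95% intervals of the summed UMIs. Igfbp3 and Epgn are highest in members in both libraries, Serpinb2 is shared with suprabasal cells and Ly6a with fibroblast-like cells. The bulge-like cells are also counted among the other basal cells. The rule used all of these genes but Cd34 and Col1a1.

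Markers that the rule did not use were those of a basal cell. Krt15, a keratin of basal and bulge cells, stood at 4229 and 4496 CPM in members and was detected in 98.6% and 98.5% of thinned members. Col17a1, a collagen of the hemidesmosome, was found in 96.5% and 97.5%, Itga6, the integrin that binds laminin there, in 79.7% and 80.3%, and Trp63, the transcription factor of stratified epithelia, in 64.5% and 63.2%. The bulge markers Cd34 and Krt24 were found in 1.54% and 1.79% of thinned control members and in 2.09% and 2.47% of thinned induced members. Transcripts of other cell types were scarce. The fibroblast list took 0.0319% and 0.0331% of member UMIs, with 11 and 12 of its 12 genes seen. The endothelial and mural list had 95 and 42 UMIs in 4 and 8 of 10 genes, and the melanocyte list 6 and 66 UMIs in 2 and 6 of 7. The T cell gene Cd3e had 1 and 13 UMIs, and the melanocyte gene Pmel 2 and 2. Their part in the results was not tested, and the immune list is given with the genes it touches.

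The members were next set beside the other basal cells of each library, 986 in control and 750 in induced. These met the same keratin threshold and upper limits but failed on Ly6a or on the 3 selecting genes. Of them, 629 and 383 failed on Ly6a alone, so the comparison is largely between Ly6a+ and Ly6a− basal cells, the latter including the hair follicle. All 175 control and 216 induced bulge-like cells are among the other basal cells, so the 2 are not separate groups where both are named. The mix of the other basal cells thus differed between the libraries. Its part in their induced over control values was not tested. Among 10848 genes with at least 20 UMIs in each library, 649 were more than 1.5-fold higher in members in both libraries, which is 5.98% of those tested, and 1490 were more than 1.5-fold lower, 13.7% of those tested. The comparison uses the cells the rule sorted, so its values describe the members and are not a test.

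Among the genes named by rule, ranked by the library with the smaller difference, those furthest above the other basal cells beside Ly6a were Ly6c1, a relative of Ly6a, and Cdh4, a cadherin. Ly6c1 stood at 45.5 CPM in control members against 4.47 in other basal cells, and at 67.6 against 2.66 in induced, log2 differences of 3.34 and 4.64. Cdh4 differed by 2.99 and 3.63. Tslp, a cytokine that keratinocytes release toward immune cells, stood at 261 and 148 CPM in members against 34.1 and 22.0 in other basal cells. Ndufa4l2, a mitochondrial protein known as a target of hypoxia signalling, was at 424 and 696 against 67.1 and 90.1. Chit1, a chitinase, was at 270 and 240 against 40.7 and 26.4, and Bmp3, a secreted member of the bone morphogenetic protein family, was at 48.8 and 51.3 against 7.66 and 6.39. Gdpd2, Gna14 and Ttc9 completed the 10 named genes, with log2 differences between 2.69 and 3.97 in both libraries.

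The genes furthest below included genes of the hair follicle. Lgr5, a receptor that marks hair germ and lower bulge stem cells, stood at 0.55 and 1.11 CPM in members against 46.1 and 44.8 in the other basal cells, log2 differences of −6.30 and −5.27. Nppc, a natriuretic peptide, differed by −5.97 and −5.70, and Grem1, a secreted antagonist of bone morphogenetic proteins, by −6.14 and −4.90. Il31ra, Slc7a8, Enox1, Shisa2, Tgm5, Cgnl1 and Avpr1a were also among the lowest. Of the bulge and hair germ list, 19 of 22 genes tested were more than 1.5-fold lower in members in both libraries and none was higher, beside 13.7% and 5.98% of all genes, with list medians of −2.55 and −2.50 against −0.07 and −0.08 over all genes. Of the immediate early list, 14 of 25 were lower and none higher, beside 13.7% and 5.98% of all genes, with medians of −0.66 and −0.86.

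The actin cytoskeleton list, which covers actins, actin-binding proteins and myosin regulators, had a median near that of all genes. Its median log2 difference of members over other basal cells was 0.07 in control and 0.10 in induced over 101 genes. In both libraries 9 of them were more than 1.5-fold higher and 17 lower, beside 5.98% and 13.7% of all genes. Against only the 13 and 51 Ly6a+ basal cells that failed on the selecting genes, the medians were 0.33 and 0.37. The share of all UMIs on the list was 4.70% in control members and 4.19% in the other basal cells, and 4.15% against 3.66% in induced. In bulge-like cells it was 4.92% and 3.77%. Single members of the list differed widely. Actb, which encodes beta-actin, stood at 11204 and 9095 CPM in members against 7840 and 6448 in other basal cells. Actn1, the crosslinker alpha-actinin 1, was far lower in members, at 36.3 and 37.5 against 224 and 240.

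Inside the member population Actb and some other actin genes ran with Serpinb2. To describe this, members were thinned to 5000 UMIs and divided at 18 and 55 Serpinb2 UMIs, which split the pooled members into 3 tiers of near-equal size. The tiers are ranges of 1 gene, not cell types: 19 and 11 cells lay within 1 UMI of the lower bound, and 18 and 7 within 1 UMI of the upper. The low tier held 26.3% of control members (23.2 to 29.5) and 39.8% of induced members (35.6 to 44.2). The high tier held 42.2% (38.7 to 45.7) and 22.2% (18.7 to 26.0). This shift repeats the lower Serpinb2 of the induced library and is a description of a selecting gene.

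From the low to the high tier the share of UMIs on the actin list went from 3.07% to 5.58% in control and from 3.13% to 5.53% in induced. Actb went from 4880 to 14856 CPM in control and from 5292 to 14826 in induced. Actg1, which encodes gamma-actin, went from 7267 to 16959 and from 7479 to 15670, and Tpm1, a tropomyosin that coats actin filaments, from 376 to 1220 and from 298 to 1067. Tmsb4x, the actin-binding thymosin beta 4, ran the other way, from 3697 to 3190 and from 3968 to 3472. In the middle tier the actin share was 4.44% in control and 4.10% in induced, and Actb stood at 9823 (9648 to 10000) and 8543 (8363 to 8726) CPM. The median log2 ratio of the actin list, induced over control, was 0.00 in the low, −0.06 in the middle and 0.07 in the high tier, against −0.03, −0.01 and 0.02 over all genes. Of the actin genes tested, 32 of 87 in control and 38 of 84 in induced were more than 1.5-fold higher in the high tier and 9 in each were lower. Over all genes 1039 of 7180 and 1063 of 6100 were higher, and 1999 and 1511 were lower. The pattern was not limited to actin genes. A list of wound keratinocyte genes had a median log2 ratio, high over low tier, of 0.94 in control and 1.13 in induced. The actin list had 0.38 and 0.40, and all genes −0.19 and −0.11. Of the wound list, 10 of 16 and 11 of 16 were higher and 3 and 2 lower.

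Other genes that ran with Serpinb2 across members include Sfn, an epithelial 14-3-3 protein, Cldn1, a claudin of tight junctions, and Ifi202b, an interferon-inducible gene. Pearson's r over cells, on log counts, was 0.72 and 0.70 for Ifi202b, 0.65 and 0.59 for Actb and 0.62 and 0.53 for Sfn, over 780 control and 527 induced cells. These genes were picked from the 15 strongest of 3036 after their values were seen, and all cells of a library share 1 mouse. Of the 3036 genes, 76 had r above 0.3 in both libraries and 17 had r under −0.3, while the median r was −0.00 and 0.01.

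The inverse side was led by immediate early genes, the transcription factors and feedback genes that cells switch on within minutes of a stimulus or of tissue handling. Fos had r of −0.58 and −0.55, Fosb −0.53 and −0.48, Atf3 −0.42 and −0.48, Socs3 −0.45 and −0.41 and Egr1 −0.37 and −0.41. Fos stood at 1794 CPM in the low tier and 74.2 in the high tier in control, and at 1684 and 116 in induced. The share of UMIs on the immediate early list was 1.62% in the low tier and 0.85% in the high tier in control, and 1.63% and 0.87% in induced. Depth moved with the tiers, at a median of 13150 UMIs before thinning in the low and 17962 in the high tier in control and 14687 and 18908 in induced. The mitochondrial share moved too, from 5.30% to 4.20% and from 4.90% to 4.05%. The part of dissociation, depth or cell state in this pattern was not tested.

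**Figure D3:**
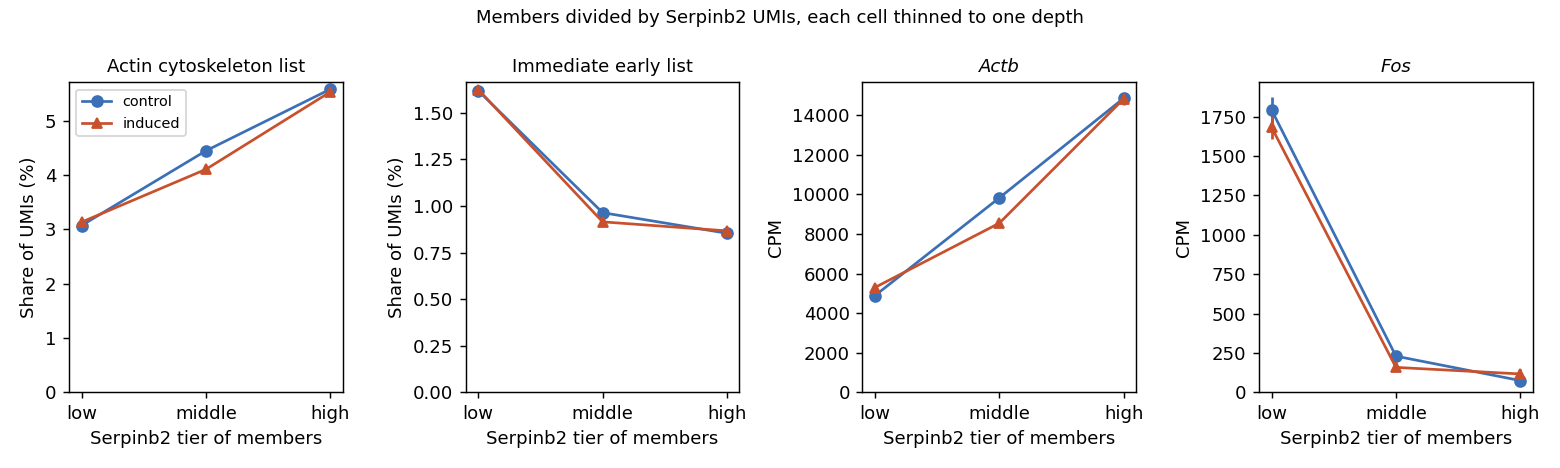
Members divided into 3 tiers by Serpinb2 UMIs (horizontal axis) in control (blue) and induced (red), with the share of UMIs on the actin and immediate early lists (percent) and the levels of Actb and Fos (CPM, bars for exact Poisson 95% intervals). The actin share goes from 3.07% to 5.58% in control and from 3.13% to 5.53% in induced, while Fos goes from 1794 to 74.2 and from 1684 to 116.

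Igfbp3 and Epgn followed the same axis less closely. Their summed counts had r of 0.43 and 0.34 with Serpinb2 over the members. Among the genes most like them were Ifi202b (0.38 and 0.33) and Tpm1 (0.36 and 0.33). Those running against them were Aqp3, an aquaporin that carries water and glycerol (−0.34 and −0.35), Fst, the activin inhibitor follistatin (−0.29 and −0.30), and Ptn, the growth factor pleiotrophin (−0.32 and −0.27). Across all basal cells, members or not, the 5 genes with the closest pattern to the sum of the 3 selecting genes included Ifi202b (0.69 and 0.69), Rap2b (0.51 and 0.50) and Actb (0.50 and 0.48), over 1763 and 1276 cells.

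The induced members were then compared with the control members. Of 10736 genes that reached 20 UMIs in the libraries together, 891 (8.3%) were more than 1.5-fold higher in the induced library and 533 (4.96%) were more than 1.5-fold lower, around a median log2 ratio of 0.04. These counts compare 2 libraries.

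The 6 transcripts that the study treats as miR-205 targets of the actin and adhesion machinery all stayed within 1.5-fold. Rock2, a kinase that activates myosin, stood at 241 CPM in control members and 185 in induced, a log2 ratio of −0.38 (−0.47 to −0.29). Actb stood at 11204 and 9095, a log2 ratio of −0.30 (−0.31 to −0.29). Actn4, alpha-actinin 4, had −0.22 (−0.29 to −0.16), and Ctnna1, the alpha-catenin of adherens junctions, had −0.09 (−0.17 to −0.01). The intervals of Actn1 (0.05, −0.16 to 0.25) and of the mechanosensitive channel gene Piezo1 (0.11, −0.11 to 0.33) included 0. The median of the 6 was −0.16. Within the low, middle and high tiers of Serpinb2 it was 0.06, −0.12 and −0.07. In those tiers Actb stood at 4880, 9823 and 14856 CPM in control and at 5292, 8543 and 14826 in induced. Rock2 and Actb were lower by a like amount in the other basal cells, at −0.34 and −0.28.

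Over the actin list the median log2 ratio was −0.05 for 98 genes, beside 0.04 for all genes. Of the 98, 62 lay below 0, and the intervals of 40 lay below 0 and of 14 above, beside 1388 below and 1713 above among the 10736 genes. On it, 2 genes were more than 1.5-fold higher, 2.04% of those tested, and 4 were lower, 4.08%, against 8.3% and 4.96% of all genes. The fascin gene Fscn1, which bundles filopodia, had 0.90 (0.52 to 1.28), Pdlim7 −0.81 (−1.36 to −0.31) and Cald1, the caldesmon gene, −0.66 (−0.97 to −0.37). In induced members 5 cells held 45.6% of the Cald1 UMIs, and its ratio was 0.03 with no threshold on the selecting genes. The basal keratinocyte, hemidesmosome and desmosome lists had medians of 0.03, 0.08 and −0.09, and none of their 21, 19 and 21 genes passed 1.5-fold in either direction. Among them Plec, the hemidesmosome linker plectin, had 0.50 (0.40 to 0.59).

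**Figure D4:**
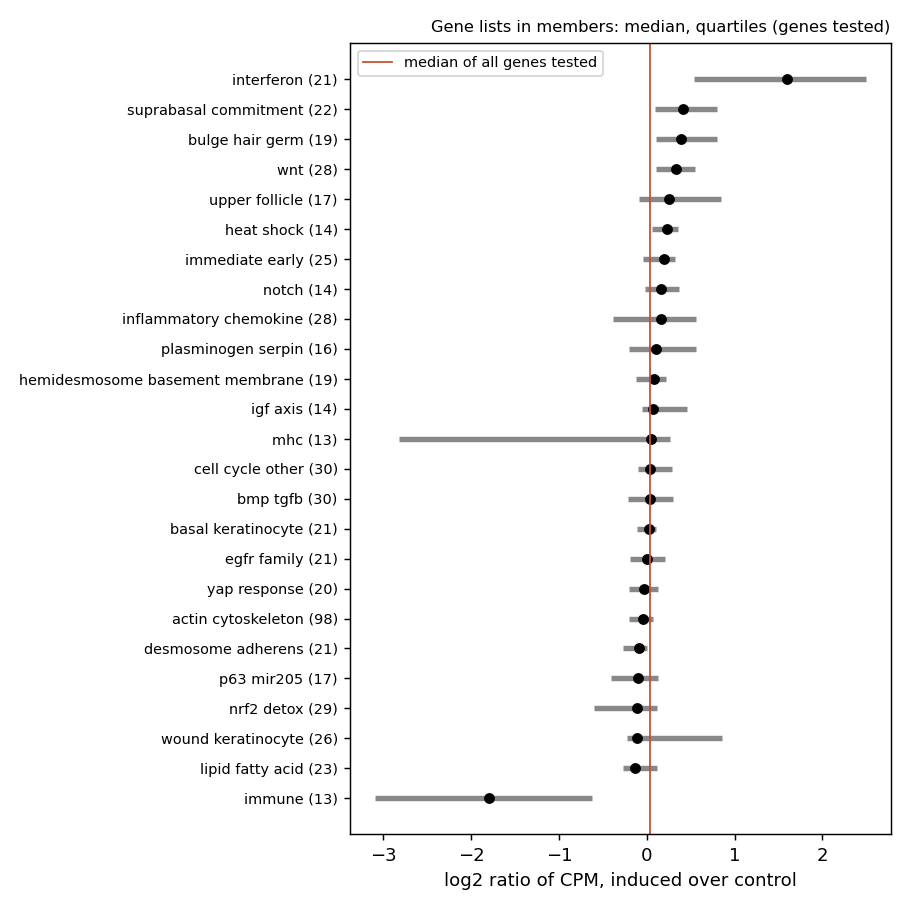
Median (black point) and quartiles (grey bar) of log2 ratios, induced over control, for each gene list with at least 10 genes tested in members, with the number tested in brackets. The interferon list lies highest at 1.60 and the immune list lowest at −1.79, and the red line marks the median of all genes, 0.04.

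Interferon-stimulated genes were the group furthest above in the induced members. Of 21 tested, 15 were more than 1.5-fold higher in the induced library and 1 was lower, against 8.3% and 4.96% of all genes, and the list median was 1.60. The intervals of 19 lay above 0 and those of 2 below. Isg15, a ubiquitin-like protein, had 52 UMIs in control and 224 in induced, or 4.07 and 24.8 CPM, a log2 ratio of 2.60 (2.17 to 3.07). Bst2, the membrane protein tetherin, had 114 and 391 UMIs and a log2 ratio of 2.27 (1.97 to 2.59). Gbp2, a guanylate-binding protein, had 95 and 381 UMIs and 2.50 (2.18 to 2.84), although its 5 richest cells held 54.7% and 43.6% of them. Ifi27l2a had 200 and 944 UMIs and 2.74 (2.52 to 2.97).

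Irf1, a transcription factor that interferons induce, was higher as well, with a log2 ratio of 1.22 (1.03 to 1.40). The immunoproteasome subunits Psmb8 and Psmb9 had 0.53 and 0.66, and Ifitm3, an abundant antiviral membrane protein, had 0.53. Ifi202b was the gene on the list that went lower, at 1499 CPM in control and 958 in induced, a log2 ratio of −0.65 (−0.68 to −0.61).

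Several of these transcripts were detected in few cells. After thinning, Ifi27l2a was detected in 5.90% of control and 23.5% of induced members, Bst2 in 5.00% and 14.2%, Isg15 in 1.92% and 5.88% and Gbp2 in 2.69% and 7.97%. Along the Serpinb2 tiers, Isg15 in induced members stood at 41.0 CPM in the low tier (29.6 to 55.2), 12 in the middle (6.20 to 21.0) and 17.1 in the high tier (8.20 to 31.4), against 3.90, 3.25 and 4.26 in control. Gbp2 stood at 72.4, 30.0 and 20.5 in induced and at 6.83, 8.13 and 8.51 in control. Within each tier the list median, induced over control, was 0.55, 0.64 and 0.58 over 15, 14 and 12 genes, with all-gene medians between −0.03 and 0.02. Fewer genes reach 20 UMIs in thinned tiers, so these medians cover other genes than the 1.60. From the low to the high tier the list median was −0.78 in control, with 1 of 13 genes higher and 7 lower, and −0.98 in induced, with 1 of 15 higher and 10 lower, against −0.19 and −0.11 over all genes.

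The same list was also above 0 in most other cells of the skin. Its median log2 ratio was 1.00 in the other basal cells (20 genes), 0.83 in upper follicle cells (17), 0.76 in suprabasal cells (15), 0.61 in fibroblast-like cells (21) and 0.02 in bulge-like cells (12), beside all-gene medians between 0.01 and 0.08. Different genes passed the 20 UMI minimum in each population, so the medians stand side by side and were not compared. Fibroblast-like cells had log2 ratios of 0.85 (0.70 to 1.01) for Gbp2 and 0.65 (0.30 to 1.00) for Bst2. In upper follicle cells Isg15, Bst2, Gbp2 and Ifi27l2a had 1.41, 1.86, 3.07 and 4.22, against 2.60, 2.27, 2.50 and 2.74 in members. Single genes were thus not all furthest above in the members.

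**Figure D5:**
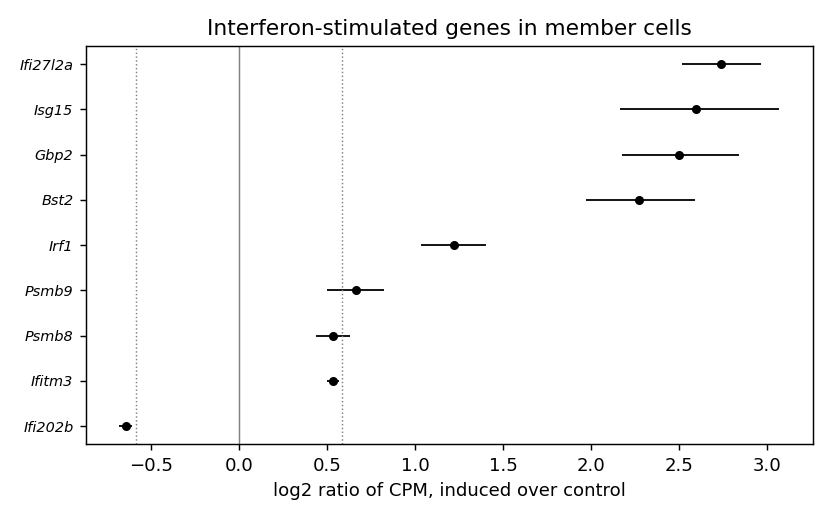
Log2 ratio of CPM, induced over control, with 95% counting intervals, for the 9 interferon-stimulated genes named in the text, ordered by value, with dotted lines at 1.5-fold. Psmb8 and Ifitm3 lie between the lines, Ifi202b lies below the lower one, and the other 6 lie above the upper one.

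Since these genes moved together, their promoters were searched for the motif of interferon-response elements, spelled GAAANNGAAA on either strand (TTTCNNTTTC on the other). RefSeq promoters of GRCm38.p6 run from 250 bases before to 50 after the gene start. The motif was found in 1131 of 32851 promoters, 3.44%. Counted by gene, it was in 303 of 8398 genes that were tested and had a promoter entry, 3.61%. It was in 8 of 17 such genes of the interferon list, and in 6 of the 12 of those more than 1.5-fold higher. The list holds known interferon-stimulated genes, so its share is a description of the list. Overlapping matches were allowed. Below are 30 bases of 3 of these promoters with 1 match of the motif in capitals, on the strand of the gene. The windows shown are from 3 of the interferon genes named above with the motif. They lie at chr4:156200865-156200894 (Isg15, minus strand), chr8:71537577-71537606 (Bst2, minus strand) and chr3:142620594-142620623 (Gbp2, plus strand).
Isg15: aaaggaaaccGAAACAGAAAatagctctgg
Bst2: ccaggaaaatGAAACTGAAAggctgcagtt
Gbp2: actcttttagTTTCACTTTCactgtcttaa
The matches in capitals end 56, 114 and 49 bases before the gene start. The Isg15, Bst2 and Gbp2 promoters hold 3, 2 and 1 matches. In the Isg15 and Bst2 windows another match overlaps the one in capitals. A match describes letters in the window and was not measured as a site.

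The 10 highest named genes of the comparison include 3 of the interferon list and the chemokine Cxcl10, which had 29 UMIs in control and 255 in induced (log2 ratio 3.61, 3.08 to 4.24). In both libraries 5 cells held most of Cxcl10, at 58.6% and 60.0%. Pla2g2f, a secreted phospholipase of the epidermis, was spread more evenly, found in 67 control and 243 induced members, with a log2 ratio of 2.99 (2.66 to 3.35). Rpgrip1, a protein of cilia, had 2.32 (1.90 to 2.77) and was found in 57 and 156 members. In the other basal cells Cxcl10 stood at 2.06, Pla2g2f at 2.90 and Rpgrip1 at 2.02.

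Pyy, which encodes the gut hormone peptide YY, had a log2 ratio of 3.02 (2.79 to 3.25), but 5 cells held 91.8% of its 183 control UMIs and 58.7% of its 1050 induced UMIs. Lor, encoding the cornified envelope protein loricrin, had 2.77 (2.50 to 3.05), and 5 induced cells held 94.2% of the 642 UMIs. Sprr2a3, another envelope gene, had 2.51 (2.03 to 3.05), and 5 cells held 97.6% and 79.0%. The values of Lor and Sprr2a3 thus rest on a handful of cells, and with at least 5 UMIs of the selecting genes required Lor stood at −0.63. Gm8797, a gene model without a functional name, had the highest value, 4.67 (4.48 to 4.87), from 234 and 4212 UMIs, and it stood between 4.02 and 4.85 in the other basal, bulge-like, suprabasal, upper follicle and fibroblast-like cells. Gm10093, another unnamed gene model, had the lowest, with 340 UMIs in control and 1 in induced, a ratio of −7.33 (−13.2 to −5.42). Whether near-identical copies share the reads of these 2 models was not tested, so both are uncertain.

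Eva1a and Rab32 were also low and were spread over many control cells. Eva1a, a membrane protein linked to autophagy, was found in 442 of 782 control and 80 of 530 induced members, at 105 and 13.0 CPM, a log2 ratio of −3.00 (−3.29 to −2.74). Rab32, a small GTPase of vesicle traffic, had 268 and 24 UMIs and −2.95 (−3.65 to −2.38). Eva1a was also lower in the other basal cells, in the bulge-like cells among them and in the upper follicle cells, at −2.55, −2.02 and −3.72.

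The remaining low named genes are known from antigen-presenting and other immune cells. The class II genes H2-Ab1 (−3.26), Cd74 (−3.12), H2-Aa (−3.10) and H2-Eb1 (−2.82), the lysozyme gene Lyz2 (−3.66) and the cytokines Il1b (−2.96) and Cxcl2 (−2.69) were all lower in the induced members. In control, 5 cells held 91.5% of 3933 Cd74 UMIs, 95.2% of the Lyz2 UMIs, 89.2% of the Il1b UMIs and 86.6% of the Cxcl2 UMIs. Immune transcripts in quantity (at least 10 UMIs summed over 15 genes) were found in 19 control and 8 induced members. Those 15 genes include Lyz2, Cd74, H2-Aa, H2-Ab1 and H2-Eb1 but not Il1b. Leaving out cells picked this way removes UMIs of the included genes by construction, so the values without them are a description. Without those cells, Cd74 stood at a log2 ratio of 0.60, H2-Aa at 0.10, H2-Ab1 at 0.04, H2-Eb1 at −0.06, Il1b at −0.03 and Lyz2 at 0.92, so the low values of these 6 genes rested on those members. Cxcl2 remained at −2.12. Over the immune list, 10 of 13 genes were more than 1.5-fold lower and 2 higher, beside 4.96% and 8.3% of all genes, with a median of −1.79, which was 0.04 without those cells. Of the 17 immune genes, 16 and 17 had at least 1 UMI in members, and the list took 0.0575% of UMIs in control and 0.00809% in induced.

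Several other pathways of the basal cell were read by list. Of the epidermal growth factor family, 3 of 21 genes were more than 1.5-fold higher and 1 lower, with a median of 0.00. Over all genes these shares were 8.3% and 4.96%. The lower gene was Epgn, which the rule used, and Tgfa, another ligand of the same receptor, had 0.44 (0.29 to 0.60). Of the plasminogen and serpin list 4 of 16 were higher and 1 lower (8.3% and 4.96% of all genes), at a median of 0.11. The lower gene was Plaur, the receptor of urokinase, which stood at 104 and 51.6 CPM, a log2 ratio of −1.01 (−1.17 to −0.86). F3, the tissue factor of blood clotting, had −0.64 (−0.69 to −0.59), against 0.48 (0.42 to 0.54) in the other basal cells. In the low, middle and high Serpinb2 tiers of the members F3 stood at 94.6, 552 and 1459 CPM in control. In induced it stood at 123, 500 and 1229. Plaur and Tgfa went the same way in the other basal cells as in members, at −0.69 and 0.27.

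Of the Wnt list 7 of 28 genes were more than 1.5-fold higher and none lower, beside 8.3% and 4.96% of all genes, with a median of 0.34. Rspo3, an amplifier of Wnt signals, had 1.505 (1.07 to 1.97), against −1.18 (−2.51 to −0.09) in the other basal cells, and Sfrp1, a secreted inhibitor, 1.06 (0.76 to 1.37). The oxidative defence list had 2 higher and 8 lower of 29 (8.3% and 4.96% of all genes), at a median of −0.11. Its glutathione transferases Gstm2 and Gstm1 had −1.24 (−1.45 to −1.04) and −0.82 (−1.003 to −0.64), and Keap1, which holds the regulator Nrf2 in check, had 0.81 (0.50 to 1.13). Insig1, which restrains sterol synthesis, had −1.32 (−1.61 to −1.04). Apart from Rspo3, these named genes went the same way in the other basal cells. Sfrp1 stood there at 1.08, Gstm2 at −1.07, Gstm1 at −0.66, Keap1 at 0.76 and Insig1 at −0.27.

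The immediate early and heat shock lists were slightly above the median of all genes, at 0.20 and 0.24. On them Klf2 and Hsph1 were more than 1.5-fold higher, 1 of 25 and 1 of 14 genes, and none was lower. Over all genes these shares were 8.3% and 4.96%. Fos had 0.40 (0.35 to 0.45) and the chaperone Hspa1b 0.49 (0.39 to 0.58). Within the low, middle and high Serpinb2 tiers the immediate early median was 0.01, −0.12 and −0.10, against −0.03, −0.01 and 0.02 over all genes. In those tiers Fos stood at 1794, 229 and 74.2 CPM in control and at 1684, 158 and 116 in induced. The suprabasal list had 10 of 22 genes more than 1.5-fold higher and 2 lower, beside 8.3% and 4.96% of all genes, with a median of 0.41. It includes Lor, whose value rested on 5 cells, and Krt1, which the rule capped and which had 0.90 (0.76 to 1.03), found in 178 control and 196 induced members. The major histocompatibility list had 2 higher and 4 lower of 13 (8.3% and 4.96% of all genes), the lower being the class II genes above. The other 17 lists with at least 10 genes tested had medians between −0.13 and 0.39.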

How the data were processed

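Libraries were 10x Genomics 3′ single-cell RNA-seq of sorted back skin cells. The authors deposited UMI counts per gene and barcode made with Cell Ranger (header version 3.0.1) on mm10, and no cell annotation was used here. Barcodes with over 200 and under 5000 genes and under 10% mitochondrial UMIs were kept, as in the study's methods. The members and the gene lists were chosen with earlier results of these data known, and the other basal cells were defined after seeing that only 13 and 51 cells failed on the 3 selecting genes alone.

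Raw counts were summed over the cells of a population and library and scaled to its total as CPM. Log2 ratios used 0.5 added UMI and genes with at least 20 UMIs. Past 1.5-fold means a log2 ratio beyond 0.58. Intervals are exact Poisson or Clopper-Pearson at 95% and cover counting error only. Correlations used genes with at least 100 UMIs in each library. Levels of 3′ counts were not scaled by length.

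Named genes were the selecting genes, the 6 targets, the 10 highest and 10 lowest with at least 200 UMIs (members against other basal cells, at least 100 UMIs in each library), up to 4 per list, 4631405K08Rik and the 5 closest patterns. Genes named with a correlation or tier, Klf2, Hsph1 and the marker examples were chosen after their values were seen. Mitochondrial, ribosomal, haemoglobin, Xist and Y-linked genes were left out, and some genes the rule names are not reported here. No doublets were removed from the main result. Scrublet (scanpy 1.11.5) scores served an alternative that left out the 165 and 145 highest-scoring barcodes, since its own threshold called 4 and 5. The ratio was tested on simulated data.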

Additional observations from a re-analysis of the deposited data

Results flagged for a closer look

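Lor, Cxcl2, F3, Rspo3 and Ly6c1 differed in direction between the members and the other basal cells, with counting intervals that excluded 0 on both sides, and the difference was not tested. The log2 ratio of Lor, induced over control, was 2.77 in the members and −4.34 (−4.76 to −3.98) in the other basal cells, where it had 1490 UMIs in control and 59 in induced. The ratio of Cxcl2 was −2.69 in the members and 0.29 (0.00 to 0.58) in the other basal cells, from 206 and 204 UMIs. In the members 5 cells held 94.2% of the induced Lor UMIs and 86.6% of the control Cxcl2 UMIs. The ratio of F3 was −0.64 in the members and 0.48 (0.42 to 0.54) in the other basal cells, from 3758 and 4245 UMIs there. In the members F3 ran with the Serpinb2 tiers, and in the low tier it was higher in induced than in control. The ratio of Rspo3 was 1.505 in the members and −1.18 (−2.51 to −0.09) in the other basal cells, from 26 and 9 UMIs. The ratio of Ly6c1 was 0.57 in the members and −0.74 (−1.47 to −0.06) in the other basal cells, from 56 and 27 UMIs.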

How the results depend on the processing

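Under 12 planned and 3 added settings, 868 values were recomputed, of which 730 stayed within the interval or 1.5-fold range of the reported value. The share of members was 26.3% and 20.1% among cells under 5% mitochondrial UMIs, 15.8% and 12.3% with thresholds on UMIs per 10000, and 16.0% in induced with no threshold on the 3 selecting genes. With genes of at least 100 UMIs, 324 were past 1.5-fold higher and 206 lower, induced over control, and 803 lower in members than in other basal cells. With genes of at least 1 UMI these were 2611, 2309 and 2638, with 1121 higher in members. The actin median, induced over control, was −0.014 with totals without mitochondrial and ribosomal genes. Members over other basal cells, it was 0.18 in induced with median-of-ratios factors, and 0.33 and 0.37 against only the cells that failed on the 3 selecting genes. With thresholds per 10000 UMIs, Lor reversed to −0.50, Lyz2 to 0.38, Cd74 to 0.17, H2-Aa to 0.030, Il1b to 0.088 and the immune median to 0.031. Lor was −0.63 with at least 5 UMIs of the selecting genes. Without members with immune UMIs, a set picked partly on these genes, Lyz2 was 0.92, H2-Ab1 0.044, Cd74 0.60, H2-Aa 0.10 and the immune median 0.044. Cald1 was 0.029 with no threshold on the selecting genes. The causes were not tested beyond what these settings show. Actn1 changed sign in 4 settings. The interferon median ran from 0.94 to 1.75. No paired analysis was possible because each group has 1 library.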
